A study of Mus musculus with 42 samples.

Results

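The comparison described here set MHCII-high against MHCII-low medullary thymic epithelial cells (mTEC) within KO samples, in which the transcriptional cofactor gene Ski was deleted in thymic epithelial cells. Its members were chosen by sample label as the libraries with the genotype KO and a medullary sort gate, 14 of the 42 libraries in the series. On 1 side stood 7 KO libraries of Epcam+CD45-UEA+Ly51loMHCIIhi cells (KO MHCII-high mTEC), and on the other 7 KO libraries of Epcam+CD45-UEA+Ly51loMHCIIlo cells (KO MHCII-low mTEC). Both groups carried the same deletion. The same contrast in the genotype Control, with 4 usable MHCII-high and 4 usable MHCII-low libraries, served as a comparison. A further genotype of the series, Ski flox Control, entered the shared model fit but was not compared here. Replicates are numbered in order of library number within a group. Each library was made from 200 sorted cells and RNA was read as counts per gene. The Cre line, the deleted exons, the age, the sex and the strain of the mice were not stated in the labels or series text used here, and neither was the mouse behind each library. The p-values below therefore measure the spread between these libraries, part of which may be technical.

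The thymic medulla is where developing T cells meet self-antigens before export. MHCII-low mTEC include immature precursors and specialised mature types such as tuft cells, the chemosensory cells that signal through taste receptor proteins. Precursors receive signals through RANK and CD40, which act through NF-kappaB, and give rise to MHCII-high mTEC. These express AIRE, a chromatin regulator that turns on many tissue-restricted genes in a mosaic fashion, so that each antigen is made by only a small share of the cells. SKI, the deleted protein, is a repressor of SMAD-dependent TGF-beta and BMP signalling.

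Depth was similar in both groups, with 3217251 to 6098199 counts per KO medullary library. Epcam, the epithelial adhesion protein used in the sort, ranged from 517 to 1151 counts per 1000000, on TMM-adjusted library totals (CPM) in KO MHCII-high mTEC and from 418 to 1614 CPM in KO MHCII-low mTEC. The summed CPM of 11 MHC class II genes, which the gate itself selects on, ranged from 22198 to 41521 (median 33703) in KO MHCII-high mTEC, against 12641 to 43056 (median 19560) in KO MHCII-low mTEC. KO MHCII-low replicates 6 and 7, at 43056 and 35368 CPM, lay among or above the MHCII-high libraries and so went against their gate at the RNA level. KO MHCII-low replicate 7 also had 29833 CPM of B cell markers, nearly all of it the immunoglobulin transcripts Ighm, Igkc and Jchain, while Pax5 and Blk stood at 0. KO MHCII-low replicate 2 had 13016 CPM of myeloid and dendritic markers, led by the complement genes C1qb and C1qc and the lysozyme gene Lyz2. Results without these libraries are given below only for the edgeR calls and for selected folds and list medians. Calls by DESeq2 and limma voom are given with these libraries included. Whether those calls hold without them is not shown here.

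Ski itself was read at low levels in both KO subsets. It ranged from 0 to 16.9 CPM (median 6.41, with 2 libraries at 0) in KO MHCII-high mTEC, against 0.523 to 16.9 CPM (median 6.04) in KO MHCII-low mTEC. On the log2(CPM + 1) scale the means were 2.07 ± 1.79 in KO MHCII-high and 2.44 ± 1.34 in KO MHCII-low mTEC (SD, n = 7 each), a difference of -0.36 with a two-sided exact permutation p of 0.653. The ranges overlapped throughout. In Control, Ski ranged from 8.21 to 23.0 CPM in MHCII-high and from 7.83 to 44.5 CPM in MHCII-low mTEC. A count over the whole gene also takes reads from exons that were not deleted, so it does not measure how complete the deletion was.

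Of 23040 genes tested with edgeR's quasi-likelihood test, 4 genes (0.0174%) passed a Benjamini-Hochberg adjusted p of 0.05 between the KO subsets. Epyc and Nsmce1 rose and Anxa6 and Lgals9 fell in MHCII-high mTEC (0.00868% of genes in each direction). At an unadjusted edgeR p under 0.05 stood 4021 genes (17.5%), of which 2443 genes (10.6%) were higher and 1578 (6.85%) were lower. DESeq2 called 552 genes (2.4%) on the same libraries and limma voom called 635 (2.76%).

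Epyc (ENSMUSG00000019936, chr10:97644068-97682454 on the plus strand of GRCm38) encodes epiphycan, a small leucine-rich proteoglycan of cartilage. It ranged from 7.06 to 184 CPM (median 26.9) in KO MHCII-high mTEC, against 0 to 0.218 CPM in KO MHCII-low mTEC, where 6 of 7 libraries had no read. The groups did not overlap. In all, 1930 counts stood against 1, a ratio of 2084 after scaling to TMM-adjusted library totals, with an exact 95% interval of 374 to 82350 that covers counting error only. The fitted log2 fold change, 10.20 ± 1.56 (SE), depends on the small count edgeR adds, and its adjusted p was 0.00214. The fitted change was 9.70 in the KO replicates 1 to 4 and 11.23 in replicates 5 to 7, the lower and higher library numbers.

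Nsmce1 (ENSMUSG00000030750, chr7:125467640-125491596, minus strand) encodes a RING-domain subunit of the SMC5/6 complex, which acts in DNA repair and chromosome maintenance. It ranged from 576 to 1103 CPM (median 704) in KO MHCII-high mTEC, against 174 to 602 CPM (median 253) in KO MHCII-low mTEC. The groups overlapped by a narrow margin at 576 to 602 CPM. The log2 fold change was 1.40 ± 0.25 (SE), with an edgeR adjusted p of 0.0174. Of the 4 calls it was the one most often lost when a library was left out. Its adjusted p was over 0.05 without any 1 of KO MHCII-low replicates 1, 2, 5, 6 and 7 or MHCII-high replicates 1 and 3, up to 0.0938 in edgeR.

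Anxa6 (ENSMUSG00000018340, chr11:54979108-55033445, minus strand) encodes annexin A6, a calcium-dependent membrane-binding protein of the endosomal and plasma membranes. It ranged from 72.1 to 142 CPM (median 94.7) in KO MHCII-high mTEC, against 121 to 509 CPM (median 389) in KO MHCII-low mTEC. Only a small stretch between 121 and 142 CPM was shared. The log2 fold change was -1.87 ± 0.28 (SE) with an edgeR adjusted p of 0.00214, and the call held without any 1 of the 14 libraries, at adjusted p-values from 0.000117 to 0.0124.

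Lgals9 (ENSMUSG00000001123, chr11:78962974-78984946, minus strand) encodes galectin-9, a secreted lectin that binds the T cell receptor TIM-3. It ranged from 91.2 to 273 CPM (median 223) in KO MHCII-high mTEC, against 309 to 1037 CPM (median 661) in KO MHCII-low mTEC. The groups did not overlap. The log2 fold change was -1.73 ± 0.30 (SE) with an edgeR adjusted p of 0.0144. The call was lost without KO MHCII-low replicate 1, MHCII-high replicate 1 or MHCII-low replicate 7, where the edgeR adjusted p was 0.0582, 0.0626 and 0.0558.

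With KO MHCII-low replicates 2 and 7 both left out, no gene passed and the edgeR adjusted p was 0.0701 for Anxa6, 0.0827 for Epyc, 0.133 for Lgals9 and 0.269 for Nsmce1. With MHCII-low replicates 6 and 7 left out, Anxa6 alone passed, at an edgeR adjusted p of 0.0214. The fold of Anxa6 moved little, at -1.69 without replicates 2 and 7 and -1.83 without replicates 6 and 7. In Control the changes of all 4 genes had the same sign, at 3.92 ± 1.49 for Epyc, 1.12 ± 0.33 for Nsmce1, -1.06 ± 0.37 for Anxa6 and -1.17 ± 0.40 for Lgals9 (log2 fold change ± SE), and each had an edgeR adjusted p of 0.661.

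**Figure D1:**
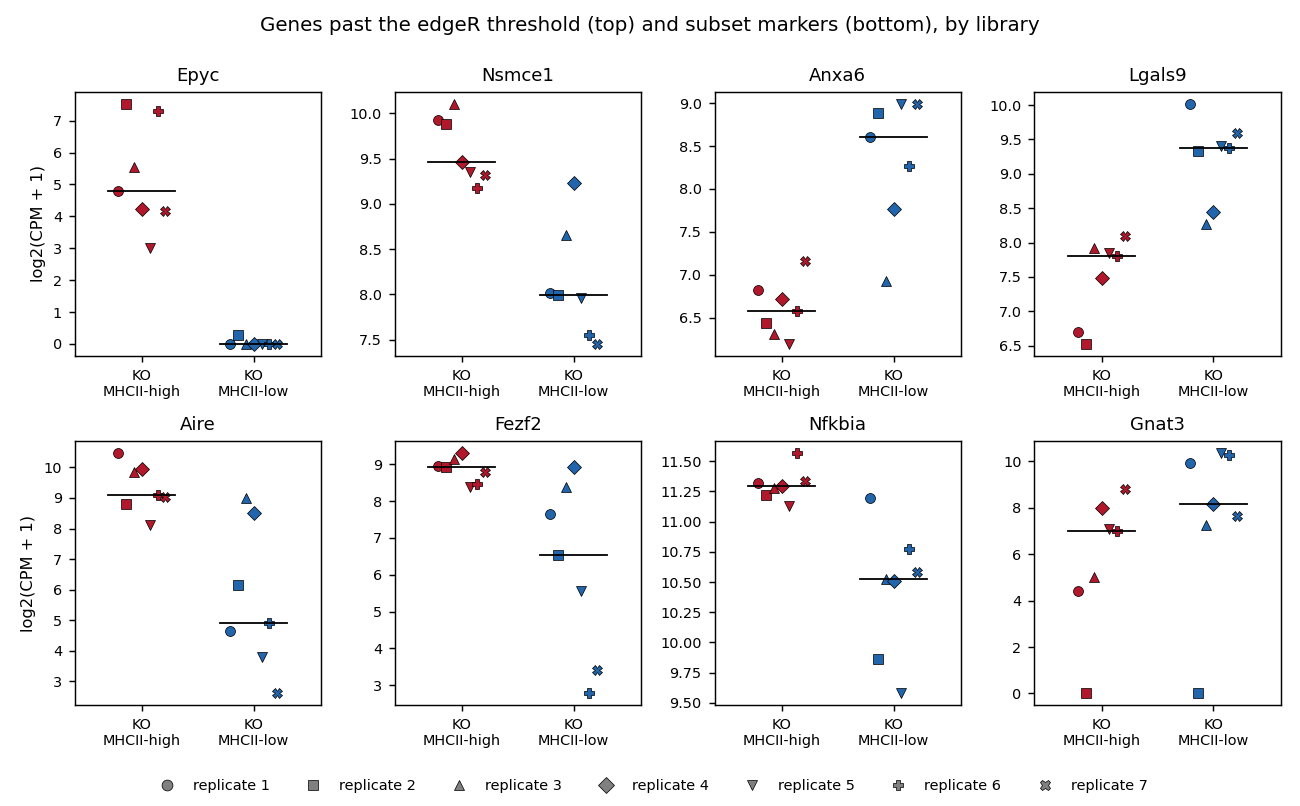
Level of 8 genes in each KO medullary library, as log2(CPM + 1), with MHCII-high libraries left and MHCII-low libraries right in each panel. Points are libraries, the marker shape gives the replicate number and bars are medians. Epyc and Lgals9 show no overlap between the groups, whereas Aire and Gnat3 spread widely within the MHCII-low group.

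The markers of the comparison gave large but variable differences, and none passed in edgeR. Aire ranged from 279 to 1411 CPM (median 544) in KO MHCII-high mTEC, against 5.06 to 510 CPM (median 28.7) in KO MHCII-low mTEC. Its log2 fold change was 2.33 ± 1.05 (SE), with an adjusted p of 0.226 in edgeR and 0.052 in limma voom. The groups overlapped: the highest MHCII-low library exceeded the lowest MHCII-high library. The fold was 1.96 in KO replicates 1 to 4 and 4.86 in replicates 5 to 7.

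Fezf2, a zinc finger factor that drives a set of self-antigens separate from those of AIRE, ranged from 335 to 629 CPM (median 489) in KO MHCII-high mTEC. In KO MHCII-low mTEC it ranged from 5.86 to 486 CPM (median 91.7). The edgeR log2 fold change was 1.50 ± 0.98 (SE) with an adjusted p of 0.494, and limma voom gave an adjusted p of 0.0126. The highest MHCII-low library lay within the MHCII-high range. The fold of Fezf2 was 0.97 in replicates 1 to 4 and 4.20 in replicates 5 to 7. KO MHCII-low replicates 6 and 7 are again among the latter.

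Gnat3, the gustducin alpha subunit that couples taste receptors in tuft cells, ranged from 0 to 441 CPM (median 128) in KO MHCII-high mTEC, against 0 to 1295 CPM (median 288) in KO MHCII-low mTEC. Both groups held libraries at 0 and the ranges overlapped. Its log2 fold change was -2.04 ± 1.30 (SE), with an edgeR adjusted p of 0.473. Over 12 regulators of promiscuous gene expression, 6 had a positive fold and the median log2 fold change was 0.06, next to a median of 0 over all genes tested and 49.4% of genes with a positive fold. Their summed level, which includes Aire and Fezf2, was 1276 to 2543 CPM (median 1552) in KO MHCII-high mTEC, against 457 to 1600 CPM (median 579) in KO MHCII-low mTEC, with overlap. The sign of the median fold changed under other settings.

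Most NF-kappaB pathway transcripts lay on the higher side, though none passed in edgeR. Nfkbia (chr12:55489410-55492647, minus strand) encodes IkappaB-alpha, the inhibitor that NF-kappaB itself induces. It ranged from 2239 to 3030 CPM (median 2515) in KO MHCII-high mTEC, against 763 to 2347 CPM (median 1471) in KO MHCII-low mTEC. The groups overlapped only between 2239 and 2347 CPM. The log2 fold change was 0.80 ± 0.23 (SE), with an adjusted p of 0.163 in edgeR, 0.0193 in DESeq2 and 0.111 in limma voom. It was 0.68 in replicates 1 to 4 and 0.96 in replicates 5 to 7.

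Nfkbie, which encodes the related inhibitor IkappaB-epsilon, ranged from 188 to 514 CPM (median 261) in KO MHCII-high mTEC, against 16.1 to 298 CPM (median 111) in KO MHCII-low mTEC. Nfkb2, the p100 precursor processed in the non-canonical pathway downstream of RANK, ranged from 190 to 811 CPM (median 266) in KO MHCII-high mTEC, against 66.5 to 244 CPM (median 104) in KO MHCII-low mTEC. Both overlapped between groups. Log2 fold changes were 1.21 ± 0.36 for Nfkbie and 1.55 ± 0.42 for Nfkb2 (SE), with adjusted p-values of 0.163 and 0.155 in edgeR and 0.0255 and 0.00594 in DESeq2.

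The 300 bases around the start of these 3 genes, from 250 before to 50 after it, are shown because each is both a member of the pathway and, as background, a known target of it. They are RefSeq sequences on GRCm38.p6, read 5′ to 3′ on the strand of the gene, and capitals mark matches to the kappaB consensus found on either strand. Nfkbia lies at chr12:55492598-55492897 (minus strand), Nfkbie at chr17:45555450-45555749 (plus strand) and Nfkb2 at chr19:46304487-46304786 (plus strand).
Nfkbia: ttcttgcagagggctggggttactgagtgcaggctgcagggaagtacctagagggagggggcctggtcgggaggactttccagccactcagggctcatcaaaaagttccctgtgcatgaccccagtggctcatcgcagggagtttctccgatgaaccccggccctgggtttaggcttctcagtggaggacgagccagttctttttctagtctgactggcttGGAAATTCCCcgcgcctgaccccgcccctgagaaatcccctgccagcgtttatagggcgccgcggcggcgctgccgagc
Nfkbie: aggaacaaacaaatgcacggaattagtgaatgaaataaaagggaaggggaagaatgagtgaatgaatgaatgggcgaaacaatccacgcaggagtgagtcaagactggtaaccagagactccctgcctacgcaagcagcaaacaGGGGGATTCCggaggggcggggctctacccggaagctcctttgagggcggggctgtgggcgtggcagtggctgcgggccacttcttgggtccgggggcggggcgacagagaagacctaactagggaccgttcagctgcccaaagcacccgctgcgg
Nfkb2: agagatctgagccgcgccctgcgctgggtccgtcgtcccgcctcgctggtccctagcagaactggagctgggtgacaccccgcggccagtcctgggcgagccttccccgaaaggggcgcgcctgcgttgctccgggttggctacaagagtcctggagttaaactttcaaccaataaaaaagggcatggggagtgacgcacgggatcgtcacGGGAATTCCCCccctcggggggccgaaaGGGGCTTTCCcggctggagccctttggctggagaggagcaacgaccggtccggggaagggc
The Nfkbia and Nfkbie windows held 1 match each and the Nfkb2 window held 4 counted over both strands, some of which overlap. Of the 25 pathway members, 19 had a window in the RefSeq table and 8 of these (42.1%) held a match, next to 2581 of 27025 genes with a window (9.55%). Members with a match were Nfkbia, Nfkbie, Nfkb2, Bcl3, Cyld, Rel, Tnfaip3 and Traf3. Of these, Rel, Tnfaip3 and Traf3 had a negative fold, so matches were not confined to the higher members. A match describes the letters and is not evidence of binding.

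Traf6, the adaptor downstream of RANK and CD40, ranged from 50.5 to 388 CPM (median 86.0) in KO MHCII-high mTEC, against 22.8 to 79.0 CPM (median 36.2) in KO MHCII-low mTEC. Its log2 fold change was 1.71 ± 0.39 (SE), with an adjusted p of 0.117 in edgeR and 0.000391 in DESeq2. Relb, the partner of processed p100, ranged from 416 to 739 CPM (median 553) in KO MHCII-high mTEC, against 32.7 to 485 CPM (median 358) in KO MHCII-low mTEC, with an edgeR adjusted p of 0.368. Birc3, the ubiquitin ligase cIAP2, ranged from 351 to 887 CPM (median 400) in KO MHCII-high mTEC, against 91.8 to 439 CPM (median 261) in KO MHCII-low mTEC, with an edgeR adjusted p of 0.163.

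In all, 20 of 25 members of the RANK, CD40 and NF-kappaB list had a positive fold, with a median log2 fold change of 0.35. None passed in edgeR, while 4 passed in DESeq2 (Nfkbia, Nfkbie, Nfkb2 and Traf6; 1.6% of all genes were called higher by that tool). The summed level ran from 6491 to 8635 CPM (median 7357) in KO MHCII-high mTEC, against 2893 to 5969 CPM (median 5011) in KO MHCII-low mTEC, without overlap. Nfkbia gave the largest share of that sum. The 5 members with a negative fold were Nfkbiz, Tnfaip3, Chuk, Traf3 and Rel, at -1.36, -1.07, -0.54, -0.25 and -0.25. In Control the same number of members was positive and the median was 0.54.

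Icam1, the adhesion ligand of LFA-1, was added to these after its values were seen. It ranged from 256 to 707 CPM (median 568) in KO MHCII-high mTEC, against 97.2 to 279 CPM (median 199) in KO MHCII-low mTEC. The log2 fold change was 1.35 ± 0.32 (SE), with an adjusted p of 0.128 in edgeR, 0.000856 in DESeq2 and 0.046 in limma voom. Among 12 costimulatory and checkpoint ligands, 11 had a positive fold and the median was 0.77, and no member passed in any of the 3 tools. Cd40, the receptor for CD40 ligand on T cells, ranged from 268 to 840 CPM (median 399) in KO MHCII-high mTEC, against 47.2 to 624 CPM (median 93.1) in KO MHCII-low mTEC. Cd80, the CD28 ligand commonly used to mark mature mTEC, ranged from 4.55 to 114 CPM (median 47.2) in KO MHCII-high mTEC, against 13.4 to 69.2 CPM (median 20.02) in KO MHCII-low mTEC. The Cd80 ranges overlapped almost fully, with an edgeR adjusted p of 0.709.

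A gene set past the adjusted threshold in both DESeq2 and limma voom was formed after the values were seen. It held 118 genes (0.512%) higher and 36 (0.156%) lower in KO MHCII-high mTEC. Of those higher, 43 had no read in any KO MHCII-low library. Where the higher group's median reached 10 CPM and the gene had a nameable symbol, 60 genes were higher and 27 were lower. The median was 0 in KO MHCII-low mTEC for 26 of the 60. Genes read in 1 group only had to differ to enter such a set, so these counts describe the set and do not test it. Nor do the DESeq2 and limma voom p-values of its members, which chose them. Members named in the text include Icam1, Nfkbie, Csn1s2a, Amtn, Epx, Psmb10, Gas1 and Tgfbr2.

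Csn2, the AIRE-dependent milk protein beta-casein, was the most abundant of the 10 tested AIRE-induced antigens. It ranged from 1265 to 2270 CPM (median 2065) in KO MHCII-high mTEC, against 40.3 to 1598 CPM (median 109) in KO MHCII-low mTEC, with an edgeR adjusted p of 0.47. Csn1s2a, another casein, ranged from 14.3 to 477 CPM (median 77.4) in KO MHCII-high mTEC, against 0 to 12.3 CPM (median 0) in KO MHCII-low mTEC, without overlap. Its fitted log2 fold change was 6.48 ± 1.60 (SE), with an adjusted p of 0.134 in edgeR, 0.0216 in DESeq2 and 0.000116 in limma voom. The value of 12.3 CPM belonged to 1 library, KO MHCII-low replicate 3, and the fitted fold was as high as 10.05 with a library left out. All 10 tested AIRE antigens had a positive fold, with a median of 1.47. The sum over the 11 list members in the count table was 1655 to 3855 CPM (median 2800) in KO MHCII-high mTEC. In KO MHCII-low mTEC it was 78.5 to 2239 CPM (median 570). The ranges overlapped. No member passed in edgeR and 1, Cyp1a2, passed in DESeq2, which called 1.6% of all genes higher. The median fold was 1.29 in replicates 1 to 4 and 3.70 in replicates 5 to 7. KO MHCII-low replicates 6 and 7, which went against their gate, summed to 184 and 78.5 CPM, against 994 CPM in replicate 5. MHCII-low replicate 1, which did not go against its gate, was also low, at 171 CPM. With any 1 KO medullary library left out, the median fold over all replicates ran from 1.23 to 1.88. The median without both MHCII-low replicates 6 and 7 is not given here, so their part in the fold is not shown. In Control, 7 of the 10 were positive.

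Several antigens of other organs were absent from every KO MHCII-low library, and their folds are given as lower bounds against 3 counts over that group. Amtn, the enamel protein amelotin, ranged from 3.50 to 121 CPM (median 10.8) in KO MHCII-high mTEC and was at least 404-fold higher. It had a count in every KO MHCII-high library, with an adjusted p of 0.0849 in edgeR, 3.46e-06 in DESeq2 and 1.95e-09 in limma voom. Amtn was taken from the set above, so its DESeq2 and limma voom p-values are not a separate test. Atp4b, the beta subunit of the gastric proton pump and an autoantigen of autoimmune gastritis, ranged from 4.08 to 553 CPM (median 27.3) in KO MHCII-high mTEC and was at least 1447-fold higher. That bound was 359 without MHCII-high replicate 4, and the edgeR adjusted p was 0.0998.

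Sprr4, a small proline-rich protein of the cornified envelope, ranged from 0 to 223 CPM (median 13.9) in KO MHCII-high mTEC and was at least 578-fold higher, or 313-fold without replicate 3. Its edgeR adjusted p was 0.0777. Pdyn, which encodes the opioid precursor prodynorphin, ranged from 0 to 235 CPM (median 20.7) in KO MHCII-high mTEC and was at least 678-fold higher, or 231-fold without replicate 4, with an edgeR adjusted p of 0.128. Robo3, an axon guidance receptor, ranged from 0 to 86.1 CPM (median 26.9) in KO MHCII-high mTEC and was at least 416-fold higher, with an edgeR adjusted p of 0.0998. Each of these 3 genes was at 0 in KO MHCII-high replicate 2 too. The libraries that were highest differed from gene to gene.

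Genes that granulocytes or glands express were in the same set. Tpsb2, a mast cell tryptase, ranged from 1.96 to 32.9 CPM (median 20.2) in KO MHCII-high mTEC, against 0 to 0.628 CPM (median 0) in KO MHCII-low mTEC. The sums were 593 counts and 3 counts, a ratio of 213 after scaling to TMM-adjusted library totals, with an exact 95% interval of 72.7 to 1038. Epx, eosinophil peroxidase, ranged from 0 to 342 CPM (median 45.7) in KO MHCII-high mTEC, against 0 to 1.57 CPM (median 0) in KO MHCII-low mTEC, with an adjusted p of 0.134 in edgeR and 0.000218 in DESeq2. Klk1b8, a glandular kallikrein, ranged from 14.8 to 109 CPM (median 43.8) in KO MHCII-high mTEC, against 0 to 4.99 CPM (median 0) in KO MHCII-low mTEC, without overlap. Prss29, a serine protease, ranged from 5.05 to 829 CPM (median 38.2) in KO MHCII-high mTEC, against 0 to 7.14 CPM (median 0) in KO MHCII-low mTEC. Klk1b8, Tpsb2 and Prss29 belong to families of close paralogs, so the counting may have moved reads between members.

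**Figure D2:**
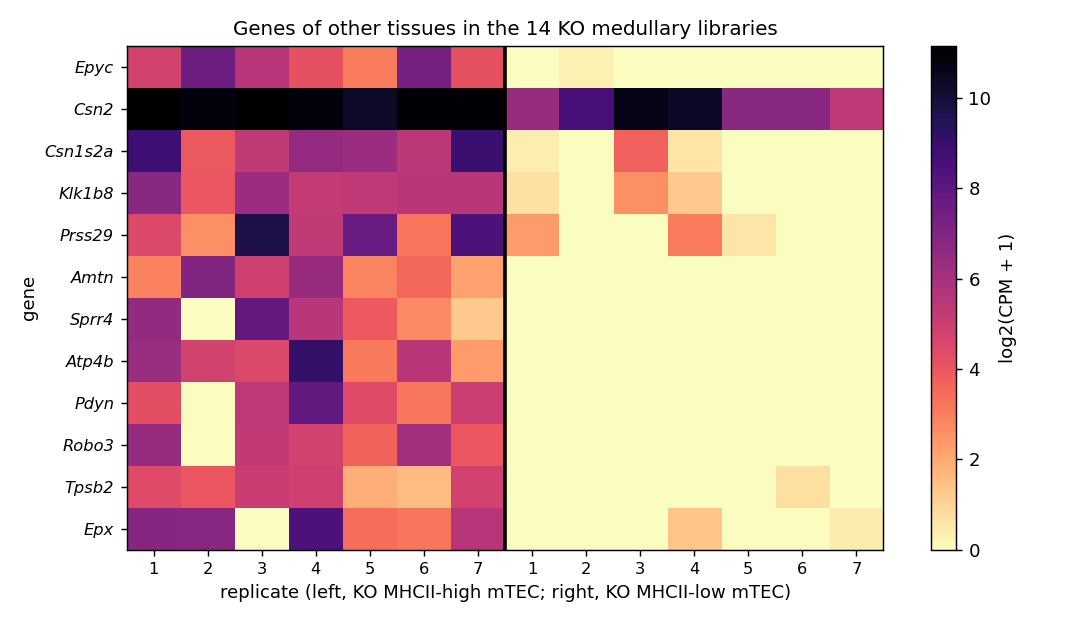
Heat map of log2(CPM + 1) for 12 tissue-restricted genes, with the 7 KO MHCII-high libraries left and the 7 KO MHCII-low libraries right. Csn2 is read in all 14 libraries, the other rows are at or near 0 in most MHCII-low libraries, and the highest MHCII-high library differs between rows.

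Muscle transcripts, made by a rare muscle-like mTEC type, had a positive fold in 12 of 15 tested members, with a median of 2.15 and none passing in edgeR, DESeq2 or limma voom. Their summed level was 180 to 615 CPM (median 258) in KO MHCII-high mTEC, against 41.8 to 334 CPM (median 121) in KO MHCII-low mTEC, with overlap. The median was 2.38 in replicates 1 to 4 and 0.90 in replicates 5 to 7. FEZF2-induced antigens were split, with 5 of 9 positive and a median of 0.54.

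Genes with general cellular roles were also in the higher part of that set, and the following were picked from it for their roles. Ing1, a reader of methylated histone H3, ranged from 331 to 475 CPM (median 407) in KO MHCII-high mTEC, against 58.6 to 305 CPM (median 123) in KO MHCII-low mTEC. Retreg1, the receptor for autophagy of the endoplasmic reticulum, ranged from 149 to 567 CPM (median 182) in KO MHCII-high mTEC, against 27.0 to 104 CPM (median 69.0) in KO MHCII-low mTEC. Rad50, the ATPase of the MRN double-strand break complex, ranged from 168 to 231 CPM (median 197) in KO MHCII-high mTEC, against 45.8 to 149 CPM (median 89.5) in KO MHCII-low mTEC. None of these 3 overlapped between groups, which held for 39 genes higher (0.169%) and 19 lower (0.0825%) of all tested. Log2 fold changes were 1.43 ± 0.37 for Ing1, 1.83 ± 0.40 for Retreg1 and 1.09 for Rad50, with edgeR adjusted p-values of 0.135, 0.102 and 0.155.

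Gnb4, a G protein beta subunit, ranged from 515 to 821 CPM (median 639) in KO MHCII-high mTEC, against 111 to 506 CPM (median 191) in KO MHCII-low mTEC, again without overlap. Psmb10, a catalytic subunit of the immunoproteasome, ranged from 505 to 946 CPM (median 572) in KO MHCII-high mTEC, against 207 to 640 CPM (median 314) in KO MHCII-low mTEC. The adjusted p-values of Psmb10 were 0.163 in edgeR, 0.0351 in DESeq2 and 0.0477 in limma voom. Among 16 MHC class I and proteasome genes, 11 were positive, with a median of 0.13.

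On the lower side stood genes of immature mTEC and of TGF-beta signalling. Gas1, a cell surface growth-arrest protein, was at 0 in 6 of 7 KO MHCII-high libraries and at 1.75 CPM in the other, against 2.29 to 90.3 CPM (median 14.3) in KO MHCII-low mTEC. The groups did not overlap. Its fitted log2 fold change was -7.07 ± 1.84 (SE), with an adjusted p of 0.139 in edgeR, 0.000234 in DESeq2 and 0.000429 in limma voom. Ly6a, the Sca-1 antigen of progenitor cells, ranged from 214 to 627 CPM (median 478) in KO MHCII-high mTEC, against 515 to 1841 CPM (median 994) in KO MHCII-low mTEC, with an edgeR adjusted p of 0.163. Krt5, the basal keratin, ranged from 22.2 to 289 CPM (median 74.9) in KO MHCII-high mTEC, against 45.9 to 487 CPM (median 162) in KO MHCII-low mTEC, with an edgeR adjusted p of 0.542.

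Of 11 tested immature medullary genes, 9 had a negative fold and 2, Krt15 and Itga6, a positive one, with a median of -1.02 in KO and -0.30 in Control. The summed level of all 12 listed genes, Ccl21a, which was not tested, included, was 771 to 1506 CPM (median 1159) in KO MHCII-high mTEC. In KO MHCII-low mTEC it was 1541 to 2618 CPM (median 1906), without overlap. The KO median was -1.21 in replicates 1 to 4 and -0.07 in replicates 5 to 7. Gas1 passed in both DESeq2, which called 0.799% of all genes lower, and limma voom, and no other member passed in either tool. Krt14, a basal keratin, ranged from 140 to 526 CPM (median 314) in KO MHCII-high mTEC, against 31.4 to 755 CPM (median 428) in KO MHCII-low mTEC, with an edgeR adjusted p of 0.981.

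Tgfbr2, the ligand-binding TGF-beta receptor, ranged from 0 to 6.22 CPM (median 0.518) in KO MHCII-high mTEC, against 1.23 to 87.5 CPM (median 17.6) in KO MHCII-low mTEC. Its log2 fold change was -3.85 ± 0.97 (SE), with an adjusted p of 0.134 in edgeR, 0.000161 in DESeq2 and 0.0146 in limma voom. In Control the fold of Tgfbr2 was -2.96. Id1, a target of BMP signalling that blocks basic helix-loop-helix factors, ranged from 0 to 68.9 CPM (median 3.69) in KO MHCII-high mTEC, against 15.2 to 112 CPM (median 46.1) in KO MHCII-low mTEC, with an adjusted p of 0.297 in edgeR and 0.0344 in limma voom. Both genes overlapped between groups. Of 27 TGF-beta and BMP pathway members, 7 had a positive fold and the median was -0.47. In Control, 10 members had a positive fold and the median was -0.26. The summed level in KO was 886 to 2150 CPM (median 1130) in MHCII-high mTEC, against 1339 to 3040 CPM (median 1813) in MHCII-low mTEC. These ranges overlapped. Id2, a relative of Id1, ranged from 139 to 1343 CPM (median 291) in KO MHCII-high mTEC, against 262 to 2376 CPM (median 748) in KO MHCII-low mTEC, with an edgeR adjusted p of 0.698. Smad1, Smad2 and Smad4, the signal-carrying SMADs, had folds of 0.16, -0.18 and -0.21, each below its SE.

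Cytoskeletal and membrane genes from the set formed after the values were seen were lower too. Zyx, the focal adhesion protein zyxin, ranged from 1.78 to 54.2 CPM (median 41.4) in KO MHCII-high mTEC, against 64.0 to 160 CPM (median 80.4) in KO MHCII-low mTEC, without overlap. Pdlim2, a PDZ-LIM protein that terminates NF-kappaB signalling, ranged from 0 to 26.9 CPM (median 7.96) in KO MHCII-high mTEC, against 22.2 to 52.2 CPM (median 39.1) in KO MHCII-low mTEC. Its fold was -2.11 in KO and 0.14 in Control. Picalm, a clathrin assembly protein, ranged from 3.28 to 94.4 CPM (median 25.1) in KO MHCII-high mTEC, against 48.8 to 151 CPM (median 101) in KO MHCII-low mTEC. Svbp, the partner of tubulin-detyrosinating vasohibins, ranged from 19.5 to 91.7 CPM (median 49.1) in KO MHCII-high mTEC, against 53.8 to 344 CPM (median 158) in KO MHCII-low mTEC. Of these only Zyx did not overlap between groups, and edgeR adjusted p-values for Zyx, Picalm and Svbp were 0.134, 0.163 and 0.115.

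Eif1b, a translation initiation factor, ranged from 37.0 to 84.9 CPM (median 50.5) in KO MHCII-high mTEC, against 79.9 to 205 CPM (median 107) in KO MHCII-low mTEC, with an edgeR adjusted p of 0.102. Dapk1, a death-associated kinase, ranged from 0 to 8.60 CPM (median 0.173) in KO MHCII-high mTEC, against 2.08 to 47.1 CPM (median 40.4) in KO MHCII-low mTEC. Eif1b and Dapk1 overlapped between groups at their edges.

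Tuft cell genes shared 1 direction. All 25 tested members had a negative fold in KO, with a median of -2.18, next to 49.1% of all genes with a negative fold. In bulk libraries fewer cells of a type and less RNA per cell cannot be told apart. The summed level was 199 to 2314 CPM (median 1455) in KO MHCII-high mTEC, against 355 to 15902 CPM (median 4574) in KO MHCII-low mTEC. KO MHCII-low replicates 1 and 5 were far above the rest and replicate 3 lay within the MHCII-high range. No member passed in edgeR or limma voom, and 4 passed in DESeq2 (0.799% of all genes were called lower by that tool). An unadjusted edgeR p under 0.05 was reached by 9, next to 6.85% of all genes that were lower at that threshold. All 25 were negative in Control as well, with a median of -1.61.

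The 4 members called by DESeq2 make or handle lipid mediators. Alox5ap, the 5-lipoxygenase activating protein, ranged from 0 to 52.0 CPM (median 5.85) in KO MHCII-high mTEC, against 16.4 to 508 CPM (median 242) in KO MHCII-low mTEC, with an adjusted p of 0.163 in edgeR and 0.00249 in DESeq2. Ltc4s, leukotriene C4 synthase, ranged from 0 to 12.6 CPM (median 5.35) in KO MHCII-high mTEC, against 12.1 to 63.8 CPM (median 18.5) in KO MHCII-low mTEC, with a DESeq2 adjusted p of 0.0134. Hpgds, prostaglandin D synthase, ranged from 5.64 to 118 CPM (median 59.1) in KO MHCII-high mTEC, against 28.5 to 419 CPM (median 261) in KO MHCII-low mTEC, with a DESeq2 adjusted p of 0.0257. Ptgs1, cyclooxygenase 1, ranged from 0.297 to 60.3 CPM (median 11.2) in KO MHCII-high mTEC, against 21.8 to 326 CPM (median 91.2) in KO MHCII-low mTEC, with a DESeq2 adjusted p of 0.0343. All 4 overlapped between groups. Myeloid and mast cells also make these enzymes, and the myeloid markers are given below.

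Lrmp, an inositol trisphosphate receptor-associated protein, ranged from 0 to 489 CPM (median 167) in KO MHCII-high mTEC, against 0 to 2418 CPM (median 708) in KO MHCII-low mTEC, with an edgeR adjusted p of 0.201. Rgs13, a regulator of G protein signalling, ranged from 7.49 to 196 CPM (median 28.8) in KO MHCII-high mTEC, against 0 to 1978 CPM (median 368) in KO MHCII-low mTEC, with an edgeR adjusted p of 0.209. Both overlapped between groups.

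A further 4 tuft cell genes, named for their roles, did not pass in edgeR, DESeq2 or limma voom. Pou2f3, the master factor of tuft cells, ranged from 0 to 56.5 CPM (median 32.2) in KO MHCII-high mTEC, against 18.6 to 188 CPM (median 76.8) in KO MHCII-low mTEC, with an edgeR adjusted p of 0.557. Trpm5, the cation channel of taste cells, ranged from 0 to 159 CPM (median 72.7) in KO MHCII-high mTEC, against 0 to 964 CPM (median 255) in KO MHCII-low mTEC, with an edgeR adjusted p of 0.511. Dclk1, a doublecortin-like kinase, ranged from 0.267 to 96.8 CPM (median 64.6) in KO MHCII-high mTEC, against 13.1 to 1428 CPM (median 183) in KO MHCII-low mTEC, with an edgeR adjusted p of 0.25. Avil, the actin-binding protein advillin, ranged from 0 to 185 CPM (median 87.5) in KO MHCII-high mTEC, against 0 to 1162 CPM (median 442) in KO MHCII-low mTEC, with an edgeR adjusted p of 0.345. Of 29 tested bitter taste receptor genes, 23 were negative, with a median of -1.63. It was -1.64 with the 6 genes absent from a whole group set at their bounds and 1 gene at the floor in both groups left out. With 1 library left out the median ran from -1.92 to -0.33. The summed level of all 35 listed receptor genes was 0 to 312 CPM (median 65.0) in KO MHCII-high mTEC, against 0 to 782 CPM (median 83.7) in KO MHCII-low mTEC.

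Lysosomal genes peaked in a library with raised markers of other cells. Ctsd, cathepsin D, ranged from 12.8 to 115 CPM (median 74.1) in KO MHCII-high mTEC, against 68.4 to 1695 CPM (median 133) in KO MHCII-low mTEC, with a log2 fold change of -2.48 and an adjusted p of 0.134 in edgeR and 0.00256 in DESeq2. Without KO MHCII-low replicates 2 and 7 its fold was -1.01. Ctsb, cathepsin B, ranged from 240 to 749 CPM (median 574) in KO MHCII-high mTEC, against 390 to 5046 CPM (median 627) in KO MHCII-low mTEC, with a fold of -1.39 that was -0.32 without those libraries. Both genes peaked in MHCII-low replicate 2. Cst3, the cathepsin inhibitor cystatin C, ranged from 281 to 4731 CPM (median 1469) in KO MHCII-high mTEC, against 637 to 7986 CPM (median 1887) in KO MHCII-low mTEC, with an edgeR adjusted p of 0.808. The median over 11 cathepsin and lysosomal genes was -1.12, and -0.20 without replicates 2 and 7.

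Among 18 myeloid and dendritic markers, 3 had a positive fold and the summed level was 1419 to 3329 CPM (median 2875) in KO MHCII-high mTEC, against 858 to 13016 CPM (median 2779) in KO MHCII-low mTEC. Their median fold was -1.84, and -0.69 without KO MHCII-low replicates 2 and 7. B cell markers summed to 133 to 639 CPM (median 410) in KO MHCII-high mTEC, against 195 to 29833 CPM (median 899) in KO MHCII-low mTEC. Thymocyte markers, negative in 16 of 16 members, summed to 79.4 to 1340 CPM (median 823) in KO MHCII-high mTEC, against 131 to 4341 CPM (median 1733) in KO MHCII-low mTEC. Ptprc, the CD45 antigen that the sort excludes, ranged from 0 to 324 CPM in KO MHCII-high mTEC, with 0 in replicates 1 to 3, against 4.18 to 773 CPM in KO MHCII-low mTEC. Without MHCII-low replicates 2 and 7 the tuft median was -2.49 and the immature median -0.88. The part in these medians of the markers that other libraries hold was not tested. Immediate early genes of the AP-1 and EGR families were negative in 15 of 18 members, with a median of -0.76 in KO and -0.73 in Control.

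**Figure D3:**
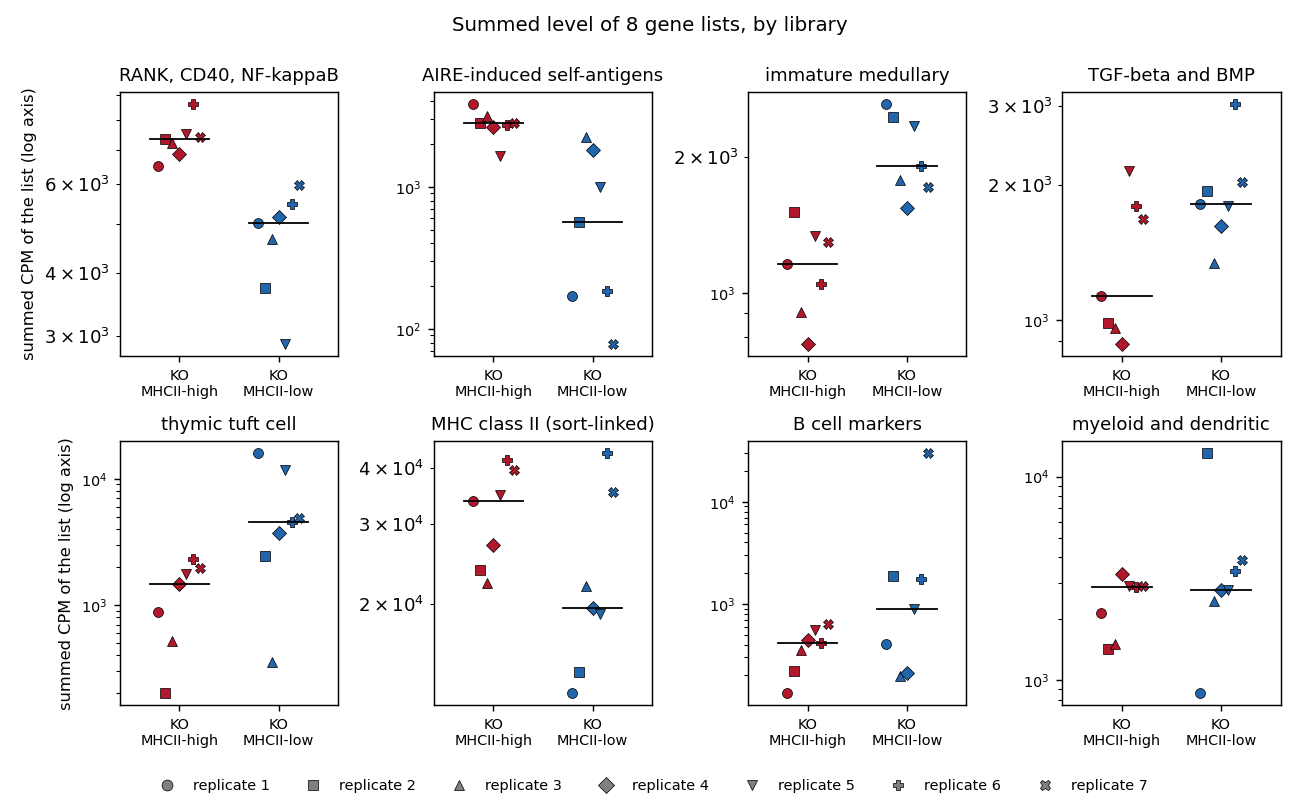
Summed CPM (log axis) of 8 gene lists in each KO medullary library, MHCII-high left and MHCII-low right, with bars at the median and the marker shape giving the replicate. The NF-kappaB and immature lists do not overlap between the groups, and the B cell list is raised in MHCII-low replicate 7 and the myeloid list in MHCII-low replicate 2.

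To ask whether the step between subsets differed with the deletion, the KO change was set against the Control change in 1 interaction term. No gene of 23040 (0.0%) passed in edgeR, with 1421 (6.17%) at an unadjusted p under 0.05, and none passed in limma voom, while DESeq2 called 139 (0.603%). In Control alone no gene passed in edgeR, with 1720 (7.47%) at an unadjusted p under 0.05, while DESeq2 called 201 (0.872%) and limma voom 79 (0.343%). Of the 60 higher genes of the set above, 56 had a positive fold in Control, where 51.4% of all genes did. Of the 27 lower genes, 24 had a negative fold in Control, against 46.2% of all genes. The KO and Control contrasts share no library.

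Among named genes the smallest interaction p belonged to Atp4b, with an unadjusted p of 0.000551 and an edgeR adjusted p of 0.571. Its fitted difference is not given, since the gene had no count in KO MHCII-low mTEC and the fit depends on the small count edgeR adds. In Control it ranged from 0 to 9.58 CPM in MHCII-high and from 0 to 29.2 CPM in MHCII-low mTEC, where 3 of 4 libraries were at 0, so the Control fold rests on 1 library. Epyc followed, with an unadjusted p of 0.00233 and the same adjusted p. Its Control range was 8.35 to 398 CPM in MHCII-high and 0 to 17.7 CPM in MHCII-low mTEC. Dpp3, a dipeptidyl peptidase that binds KEAP1, was read in every library. It ranged from 65.4 to 400 CPM (median 224) in KO MHCII-high and 24.6 to 128 CPM (median 71.7) in KO MHCII-low mTEC, and from 68.2 to 108 CPM in Control MHCII-high and 71.7 to 119 CPM in Control MHCII-low mTEC. Its fold was 1.59 in KO and -0.18 in Control.

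On the other side, Eed, the histone-binding subunit of Polycomb repressive complex, ranged from 40.1 to 108 CPM (median 86.8) in KO MHCII-high and 70.2 to 198 CPM (median 104) in KO MHCII-low mTEC. It ranged from 73.3 to 128 CPM in Control MHCII-high and 30.0 to 71.5 CPM in Control MHCII-low mTEC. The fold of Eed was -0.43 in KO and 0.94 in Control, an interaction of -1.37 ± 0.46 (SE) with an unadjusted p of 0.00558 and an edgeR adjusted p of 0.571. Mpo, the granule enzyme myeloperoxidase and a known antigen of mature mTEC, was read in 3 of 7 KO MHCII-low libraries, at up to 77.3 CPM, and in none of the 4 Control MHCII-low libraries. In MHCII-high mTEC it ranged from 0 to 109 CPM in KO and 20.8 to 105 CPM in Control.

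**Figure D4:**
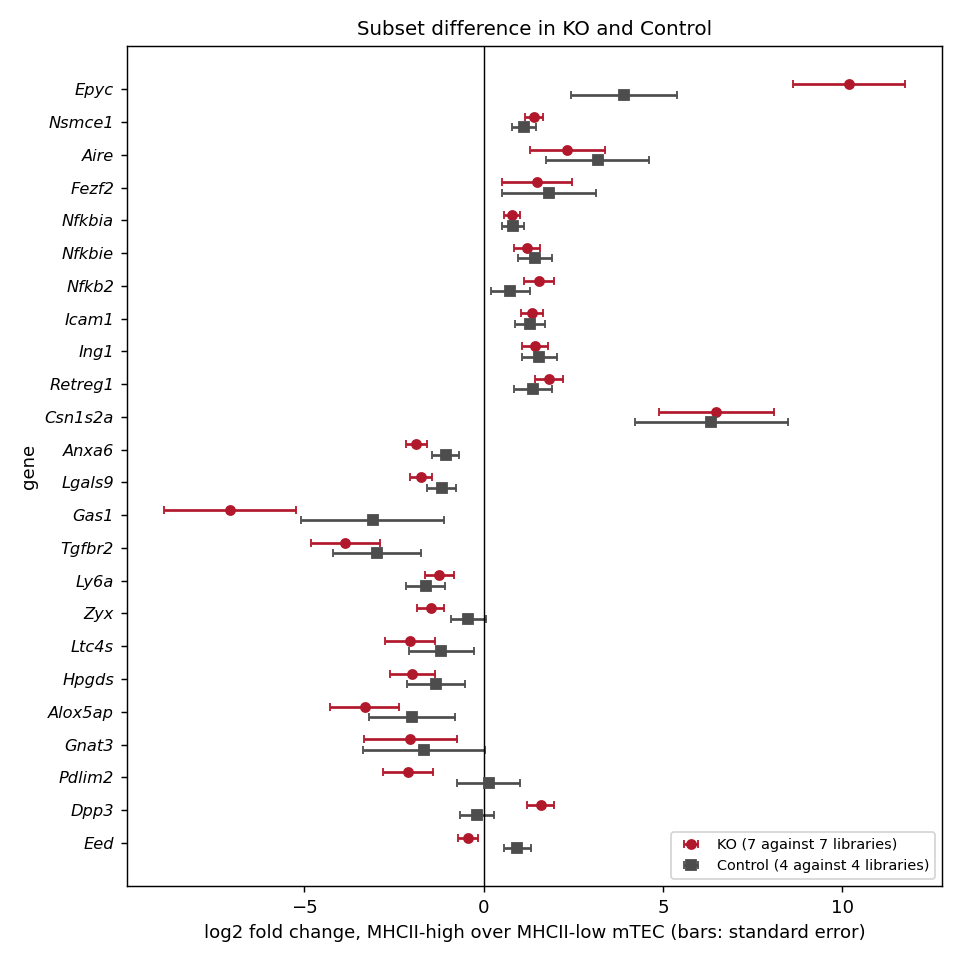
Log2 fold change of MHCII-high over MHCII-low mTEC for 24 genes picked with their values seen, with KO (circles, n = 7 and 7) above Control (squares, n = 4 and 4) in each row and bars of 1 SE. Pdlim2, Dpp3 and Eed lie on opposite sides of 0 in KO and Control and the other 21 on the same side. The Control folds of Pdlim2 and Dpp3 are small, and no gene passed in edgeR for a difference between the KO and Control changes. Atp4b, which also parts in sign, is not drawn because its KO fold is a bound.

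Genes read at least once per library numbered 16737 ± 3487 in KO MHCII-high and 16488 ± 1911 in KO MHCII-low libraries (SD, n = 7 each), a difference of 250 with a two-sided exact permutation p of 0.872. After thinning to 3000000 counts the difference was 329, with an exact permutation p of 0.809. The difference ran in opposite directions along the library numbers. It was -1574 in replicates 1 to 4, with an exact permutation p of 0.457, and 2681 in replicates 5 to 7, with an exact permutation p of 0.2, where the smallest possible p is 0.1.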

How the data were processed

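RNA was measured in 42 libraries of sorted mouse thymic epithelial cells, made with SMART-Seq v4 and Nextera XT per the labels' protocols, without strand marking or molecular identifiers. The authors deposited 1 table of whole-number read counts per Ensembl gene, not normalised. The submitters' processing notes name HTSeq 0.4.1, SAMtools 1.2, Picard 1.134, FastQC 0.11.3 and GRCm38. The aligner, annotation and strand setting were not stated in the labels used here. Because strand was not marked in the libraries, overlapping and antisense genes cannot be told apart. GENCODE M21 gave symbols for 53360 of 53465 gene identifiers, and 37695 genes had a count.

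Libraries under 100000 counts were left out (2 Control medullary libraries), which left 40 with 3217251 to 7068077 counts. edgeR 4.0.16 (R 4.3.3) fitted 1 mean for each of the 9 groups of subset and genotype after TMM scaling and filterByExpr, with a quasi-likelihood test and a Benjamini-Hochberg threshold of 0.05 over 23040 genes. The biological coefficient of variation was 1.40. DESeq2 1.42.0 and limma voom 3.58.1 were alternatives, next to other scaling, filters, covariates, library sets, a replicate block and each library left out. The fitting code was tested on simulated data. CPM is the count scaled to a TMM-adjusted library total of 1000000. Single values were compared with two-sided exact permutation tests (SciPy 1.17.1), and intervals and bounds cover counting error only.

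Genes were named by fixed rules: a set of markers, the largest folds and smallest p-values among called genes whose higher group had a median of 10 CPM or more, the 2 most abundant members of each list where none passed, and the smallest interaction p-values. Genes past both DESeq2 and limma voom, and further list members described for their roles (among them Nfkb2, Traf6, Birc3, Krt5, Id1, Ctsd and most tuft cell genes), were added after their values were seen. The members and the 35 gene lists were chosen with earlier results of these data known. No fold, level or call was taken from the submitters.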

Additional observations from a re-analysis of the deposited data

Results flagged for a closer look

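In groups of 7 libraries, a library stands apart here when its gap to the nearest other library, divided by the range of the group on the log2(CPM + 1) scale, is above Dixon's critical value for 7 values. Of 138 groups tested, 22 held such a library. The critical value is set for a rate of 5% in independent, normally distributed values. Several groups here held many zeros, where a single library with counts gives a ratio of 1, and the genes share libraries. The count of 22 is therefore not a test against that rate.

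Among KO MHCII-high libraries, replicate 2 stood apart and low for the tuft genes Trpm5 (ratio 0.814), Avil (0.714), Ltc4s (0.575) and Hpgds (0.570), for the summed bitter taste receptors (0.624), for Zyx (0.739) and for Robo3 (0.573). Replicate 3 was low for Dclk1 (0.742), replicate 1 was low for Cd80 (0.592), and replicate 5 was low for Csn2 (0.686). Replicate 4 was high for Birc3 (0.633), and replicate 7 held the only counts of Gas1 (ratio 1).

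Among KO MHCII-low libraries, replicate 2 was high for Ctsd (0.669) and Ctsb (0.653), low for Gnat3 (0.702), and held the only count of Epyc (ratio 1). Replicate 3 was low for Hpgds (0.586) and Avil (0.771) and high for Csn1s2a (0.837). Replicate 4 was high for Epx (0.683), replicate 5 low for Nfkbie (0.583), and replicate 6 held the only counts of Tpsb2 (ratio 1).

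The difference in detected genes between MHCII-high and MHCII-low libraries of the same number was negative in all of KO replicates 1 to 4 and positive in all of replicates 5 to 7. The mean differences lay 4254 genes apart, and that gap was not tested.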

How the results depend on the processing

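The count of 4 genes past edgeR's threshold was the same with the RLE scaling, without any filter, when 10 CPM were asked of 5 libraries and, chosen after seeing the data, in robust edgeR. It was 552 in DESeq2, 635 in limma voom, 1 with only the 14 KO medullary libraries, 1 with all 42 libraries and 15 with detected genes as a covariate. KO replicates 1 to 4 alone gave 18 genes and replicates 5 to 7 gave 1, none of them among the 4. Settings chosen after seeing the data gave 0 calls without KO MHCII-low replicates 2 and 7 and 1 without replicates 6 and 7. With 1 library left out the count ran from 2 to 11. It was 2 without MHCII-low replicate 1, MHCII-high replicate 1 or MHCII-low replicate 7, and 11 without MHCII-low replicate 3. The cause of these shifts was not tested.

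The labels do not say that libraries of consecutive number are paired. The deviations of the 7 number-matched pairs correlated at 0.032 to 0.26, over 0.1 in 6, and 9 of 14 libraries correlated best with their own number. With this replicate block the count was 11, holding 3 of the 4 calls, and 1 with only the 14 KO medullary libraries. The block's sign-flip p was 0.719 for Ski and 0.813 for detected genes.

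The interaction count of 0 became 139 in DESeq2 and stayed 0 in the other settings, libraries left out included. List members past the threshold, 0 in edgeR, were 26 in DESeq2 and 16 in limma voom. DESeq2 called 2.4% and limma voom 2.76% of all genes tested, and the share among list members was not computed. The count of list members was 1 each with the block on all libraries, with replicates 1 to 4 alone and with the covariate. The Ski difference ran from -0.84 to 0.27 with a pair of libraries left out and was -1.12 with a pseudocount of 0.1 CPM. That in detected genes ran from -393 to 707 and was -1574 in replicates 1 to 4.

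Of the named genes, Trpm5 alone changed sign, to 0.20 in limma voom. The median of the promiscuous expression regulators, 0.06, was -0.0314 in limma voom, -0.051 and -0.16 with the block on all and on 14 libraries, -0.0382 in replicates 1 to 4, -0.0037 in replicates 5 to 7, and -0.0609 to 0.14 with a library left out. The FEZF2 median, 0.54, was -0.11 with the covariate and -0.027 to 0.90 with a library left out. Over the settings and named genes, 1443 values kept their call and sign, 74 gained a call and 36 lost one. Only the 4 genes called in the main fit could lose a call. The values that kept theirs were mostly of genes not called, and a missing adjusted p counted as kept. A gene at 0 at this depth may still be present below the level that 3 counts would show.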
